A study of Mus musculus with 4 samples.

Results

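Enteroendocrine cells (EECs), the hormone-secreting cells of the gut epithelium, were taken from single cell RNA-sequencing (scRNA-seq) of the suckling mouse intestine by their transcripts. A cell was kept when it had 1000 to 6000 detected genes and under 20% mitochondrial UMIs (unique molecular identifiers, the counted molecules). It was called an EEC when at least 3 of 7 markers were detected with 5 or more UMIs summed over them. The 7 were Chga and Chgb (granins), Cpe (a prohormone carboxypeptidase), Sct (secretin) and the transcription factors Neurod1, Insm1 and Isl1. The rule found 260 EECs among 30538 kept cells. The epithelium came from 2 wild-type mice taken on postnatal day 6, from the jejunum and ileum of each, and each segment of each mouse gave 1 library prepared with the PIPseq V T20 kit, which captures RNA by the 3′ end. Replicate 1 of both regions is the mouse labelled male and batch 1, and replicate 2 the mouse labelled female and batch 2, so mouse, sex label and batch cannot be told apart. The sex labels went against the transcripts: in EECs Xist stood at 733 and 557 CPM (counts scaled to a common library total of 1e6 UMIs) in the 2 libraries labelled male and at 0 in the 2 labelled female. No comparison below uses sex, and with 2 mice the p-values measure the spread between those animals only.

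EECs descend from crypt progenitors that switch on Neurog3, a short-lived transcription factor that later gives way to Neurod1, Insm1, Pax6, Isl1 and other regulators. Mature EECs are grouped by product. Enterochromaffin cells make serotonin with Tph1, the rate-limiting enzyme, and many also make tachykinins from Tac1. L and I cells make proglucagon (Gcg), peptide YY (Pyy), cholecystokinin (Cck) and neurotensin (Nts). K cells make Gip, D cells make somatostatin (Sst) and X cells make ghrelin (Ghrl). Secretin is shared by many of these classes. K and I cells are classically proximal and L cells distal.

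The promoters of 4 hormone genes that recur below are shown: Gcg and Cck for the peptide cells, Tac1 for the enterochromaffin cells and Sct for a hormone found in both. Each is the RefSeq window (mouse build GRCm38.p6) from 250 bases before to 50 after the transcript start, and capitals mark CATCTG or its reverse complement CAGATG, an E-box of the kind that Neurod1 and Neurog3 can bind. Gcg lies on chr2:62483604-62483903 (minus strand), Cck on chr9:121495645-121495944 (minus), Tac1 on chr6:7554811-7555110 (plus) and Sct on chr7:141279084-141279383 (minus).
Gcg promoter: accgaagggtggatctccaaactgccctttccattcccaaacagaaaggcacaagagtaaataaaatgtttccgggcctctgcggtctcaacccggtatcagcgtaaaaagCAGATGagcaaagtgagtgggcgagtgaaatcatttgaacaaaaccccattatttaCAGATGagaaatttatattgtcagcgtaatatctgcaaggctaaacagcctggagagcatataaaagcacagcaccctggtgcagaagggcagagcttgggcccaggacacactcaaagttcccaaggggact
Cck promoter: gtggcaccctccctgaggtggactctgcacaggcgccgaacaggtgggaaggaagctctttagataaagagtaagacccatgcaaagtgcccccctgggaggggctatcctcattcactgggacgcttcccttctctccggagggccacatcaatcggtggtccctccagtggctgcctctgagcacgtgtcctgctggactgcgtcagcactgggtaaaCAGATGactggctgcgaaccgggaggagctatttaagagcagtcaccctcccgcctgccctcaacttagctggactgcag
Tac1 promoter: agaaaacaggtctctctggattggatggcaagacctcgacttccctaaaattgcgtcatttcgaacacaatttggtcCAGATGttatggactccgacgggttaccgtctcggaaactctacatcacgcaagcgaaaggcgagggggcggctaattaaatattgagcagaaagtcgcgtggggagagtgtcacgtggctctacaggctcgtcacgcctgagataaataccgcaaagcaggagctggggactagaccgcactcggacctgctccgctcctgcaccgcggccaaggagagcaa
Sct promoter: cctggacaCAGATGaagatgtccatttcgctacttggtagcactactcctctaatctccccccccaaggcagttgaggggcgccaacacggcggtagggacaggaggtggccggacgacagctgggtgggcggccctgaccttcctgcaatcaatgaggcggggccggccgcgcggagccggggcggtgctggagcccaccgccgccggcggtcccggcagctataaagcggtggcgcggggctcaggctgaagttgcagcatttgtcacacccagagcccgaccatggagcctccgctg
The word was searched on both strands in the windows of 12 hormone and serotonin genes (Sct, Tph1, Tac1, Cck, Pyy, Ghrl, Gcg, Nts, Cartpt, Sst, Iapp and Gip), all of which had an entry. It was in a window of 7 of these genes, the 4 shown among them, and in no window of Tph1, Pyy, Nts, Sst or Gip. By window it was in 8 of 17, against 17.2% of all 32851 promoter windows of that length. Of these 8, 2 are Ghrl windows that overlap almost fully. A match is a description of letters and not a site.

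The 4 libraries held 81 EECs among 7309 kept cells in ileum replicate 1, 69 of 8505 in ileum replicate 2, 66 of 8999 in jejunum replicate 1 and 44 of 5725 in jejunum replicate 2. EECs made up 1.11% of kept cells in ileum replicate 1 (exact Clopper-Pearson 95% interval 0.881% to 1.38%) and 0.811% in ileum replicate 2 (0.632% to 1.03%). In the jejunum the shares were 0.733% (0.568% to 0.932%) and 0.769% (0.559% to 1.03%). These intervals cover counting error only. The mean was 0.960% ± 0.210 in the ileum against 0.751% ± 0.0249 in the jejunum (SD, n = 2). Both ileal shares stood above both jejunal ones, and the exact two-sided permutation test gave p = 0.33, the smallest that 2 libraries against 2 allow, so it could not pass at any size of difference. With a mitochondrial limit of 10% the order turned round, to 1.01% in the ileum against 1.22% in the jejunum.

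EECs were shallower than their neighbours. Their median was 3359, 3424, 3190 and 5478 UMIs in ileum 1, ileum 2, jejunum 1 and jejunum 2, against 12239, 11020, 4718 and 5894 in the other kept cells. The summed EEC libraries held 424311, 285447, 224419 and 248574 UMIs. At the edge of the rule, the 4 EECs with exactly 5 marker UMIs had a median of 17408 UMIs in all, and the 19 cells just outside, with 3 or more markers but 3 or 4 UMIs, had 11607. Far from the edge, 231 of the 260 had at least 4 markers and 10 UMIs, and 19 had all 7 markers. Scrublet called 0 EECs as doublets, but it marked 5 of all kept cells and so gave no usable call. No barcode of an EEC was shared with a kept cell of another library.

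Most granule genes outside the rule went with the label, while markers of other cell types were mixed. Of 31 listed genes for granules and hormone processing that the rule did not use, 28 were higher in EECs than in other kept cells in all 4 libraries (median log2 ratio 4.27), including Pcsk1n, the inhibitor of prohormone convertase 1, at 589 ± 193 CPM against 0.123 (SD over the 4 libraries). Pcsk1, the convertase itself, had UMIs in 173 EECs and averaged 425 CPM, while Pcsk2, the convertase that releases glucagon in the pancreas, had UMIs in 8 EECs and averaged 6.88 CPM. Over all 28941 genes with a UMI in kept cells, the median log2 ratio of EECs to other kept cells was -0.003. Because the rule chose the cells, these contrasts with other cells are descriptions and were not tested. Of 16 enterocyte markers, 15 were lower in EECs in all 4 libraries, and their summed level in EECs was 54.1%, 30.4%, 24.2% and 26.4% of that in other cells in ileum 1, ileum 2, jejunum 1 and jejunum 2. The part of enterocyte RNA in EEC values was not tested. The lowest ratio among these markers, 7.91% (Fabp1), 14.6% (Slc34a2), 5.22% (Cubn) and 18.0% (Alpi) in the same order, bounds the share of the enterocyte profile common to all of them. Immune markers summed to 7.07 to 32.2 CPM, with Cd3e, Cd52, Lyz2 and Cd79a at 0. Of 12 enteric neuron and glia genes, 2 were higher in EECs in all 4 libraries and 5 in none. Their summed level was 111, 154, 156 and 201 CPM in the same order, 111% to 265% of that in other cells. Sox10, Gfap and Hand2 of that list were at 0. Of 12 mesenchyme and endothelium genes, 2 were also higher in EECs in all 4 libraries and 5 in none. Vim, an intermediate filament gene on the latter list, averaged 197 CPM in EECs and 0.4 CPM elsewhere. Col1a1, Col3a1, Dcn, Lum and Acta2 of the mesenchyme were at 0. The islet list was carried by Iapp, with Ins1 at 0. Of 10 stem and progenitor genes, 4 were higher in EECs in all 4 libraries and 0 in none. Their summed level was 107% to 310% of that in other cells. Of 8 Paneth genes, 2 were higher in all 4 libraries and 2 in none (summed level 137% to 217%). Of 10 tuft genes, 1 was higher in all 4 libraries and 3 in none (60.1% to 143%). Summed cell cycle genes were 203% of the other-cell level in ileum replicate 1 and 55.5% to 114% in the remaining libraries.

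Outside the rule, the 20 genes with the highest EEC to other-cell ratio (at least 100 CPM in EECs of every library, on log2 of CPM + 5) began with Pyy, Cck, the potassium channel gene Kcnb2, Tph1, Tac1 and Pcsk1n. They went on through Sis, Stxbp5l, Gcg, Reg4, Map1b, Ptprn2, Cacna2d1, Pcsk1, Fxyd3, Cacna1a, Nkx2-2, Rab3c, Scn3a and Tpbg. Several encode the machinery of electrical excitation and granule release, among them the calcium channel subunit genes Cacna1a (1056 ± 252 CPM) and Cacna2d1 (799 ± 359), the sodium channel gene Scn3a (432 ± 135), and Rab3c (428 ± 166), a small GTPase of secretory vesicles. Sis encodes sucrase-isomaltase, a brush border disaccharidase known from enterocytes after weaning. At this age it stood at 436, 578, 758 and 668 CPM in the EECs of ileum 1, ileum 2, jejunum 1 and jejunum 2 and at 0.392 to 0.933 CPM in other kept cells. A Sis UMI was found in 171 of the 260 EECs. Reg4, a secreted lectin, averaged 5222 ± 2362 CPM in EECs and 47.7 in other cells. Of the 10 goblet markers, 2 were higher in EECs in all 4 libraries and 2 in none. The former were Tff3 (629 CPM in EECs, 47.8 elsewhere) and Agr2 (107 and 3.66). Muc2, the defining goblet mucin, was at 11.4 and 10.0 CPM. The summed goblet level was 232%, 462%, 945% and 746% of that in other cells in ileum 1, ileum 2, jejunum 1 and jejunum 2.

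Hormone transcripts were counted in single EECs with a minimum of 3 UMIs. Of 260 EECs, 123 passed for Sct, 101 for Tph1, 89 for Tac1, 50 for Cck, 35 for Pyy, 27 for Ghrl and 24 for Gcg. Smaller groups were Nts with 14, Cartpt (a neuropeptide precursor) with 13, Sst with 9, Iapp with 8 and Gip with 4. Gast, Ppy, Penk, Npy, Calcb and Adcyap1 had no UMI in any EEC, which allows up to 1.15% of EECs to hold a UMI. Such limits concern cells with a UMI, not cells that express the gene. Across the EECs, 61 passed for none of the listed hormones or Tph1, 51 for exactly 1, 59 for 2, 54 for 3 and the rest for 4 to 6. Cells without a hormone were 29 of 81 in ileum 1, 14 of 69 in ileum 2, 11 of 66 in jejunum 1 and 7 of 44 in jejunum 2.

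Thinning each cell to 2000 UMIs and asking for 2 or more UMIs put the libraries on 1 depth, at the cost of 12 EECs that were shallower. Sct, which the rule used and which is given as a description only, then marked 27.5% and 39.4% of ileal EECs (replicates 1 and 2). In the jejunum it marked 53.4% and 56.8%. In other kept cells the same threshold was met for Sct by 0.298% and for Gcg, Pyy, Cck, Tac1, Tph1, Ghrl, Nts, Sst and Gip by at most 0.0381%. Tph1 marked 31.2% and 43.9% of ileal and 36.2% and 50% of jejunal EECs, which overlap. For Tac1 the shares were 23.8% and 42.4% in the ileum against 39.7% and 27.3% in the jejunum, and these also overlap. Cartpt marked 0% and 0% of ileal EECs and 5.17% and 22.7% of jejunal EECs.

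**Figure D1:**
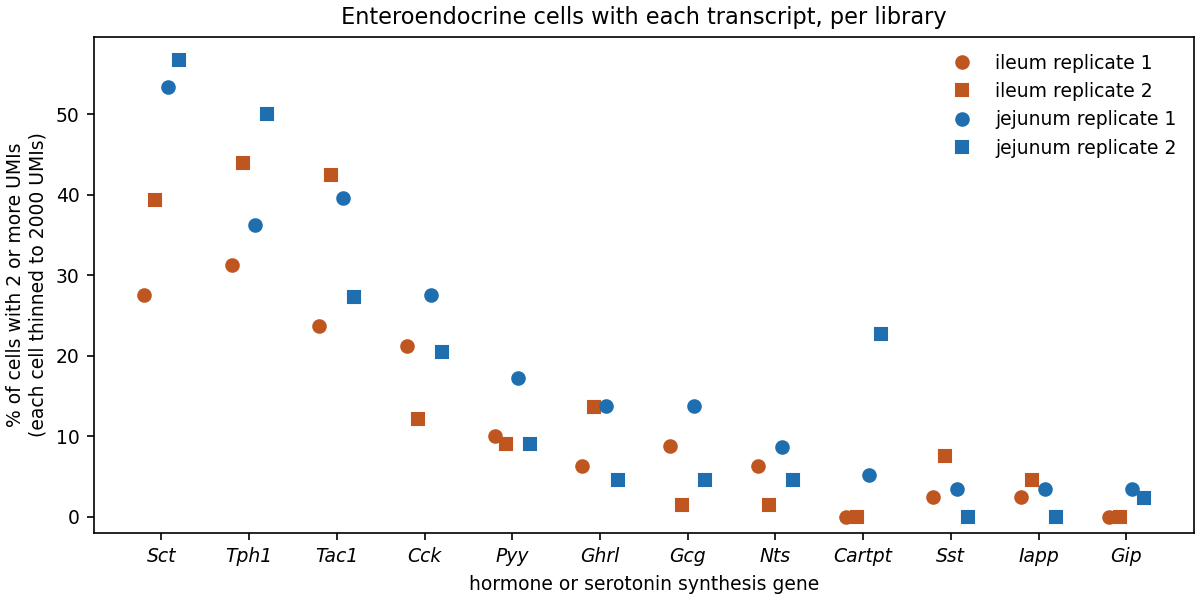
Share of EECs with 2 or more UMIs of each hormone or serotonin synthesis gene after each cell was thinned to 2000 UMIs (vertical axis, percent), with 1 point for each library (orange ileum, blue jejunum, circles replicate 1, squares replicate 2). Sct, which the rule used, and Cartpt are higher in both jejunal libraries than in both ileal ones, while Tph1 and Tac1 overlap.

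The hormones fell into sets that were seldom found in the same cell. Sct was used by the rule, so its counts here are partly set by the choice of cells. It passed in all 24 Gcg cells and in 123 of all 260 EECs. Of the 24 Gcg cells, 21 passed for Cck, 20 for Pyy, 11 for Ghrl and 10 for Nts. None of the 24 Gcg cells among the EECs passed for Tac1 or Tph1. In the opposite set, 63 of the 89 Tac1 cells passed for Tph1. Of the 35 Pyy cells, 32 passed for Sct, 22 for Cck, 16 for Ghrl, 14 for Nts, and only 1 each for Tac1 and Tph1. All 14 Nts cells passed for Pyy. Sct crossed the divide: it passed in 57 of the 101 Tph1 cells and in 22 of the 27 Ghrl cells. Cck crossed it less, with 11 of its 50 cells passing for Tph1. At the level of a single UMI Cck was broader, since 54 of the 101 Tph1 cells held at least 1 Cck UMI. Cells share their library and depth, so these counts are descriptions and carry no test.

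**Figure D2:**
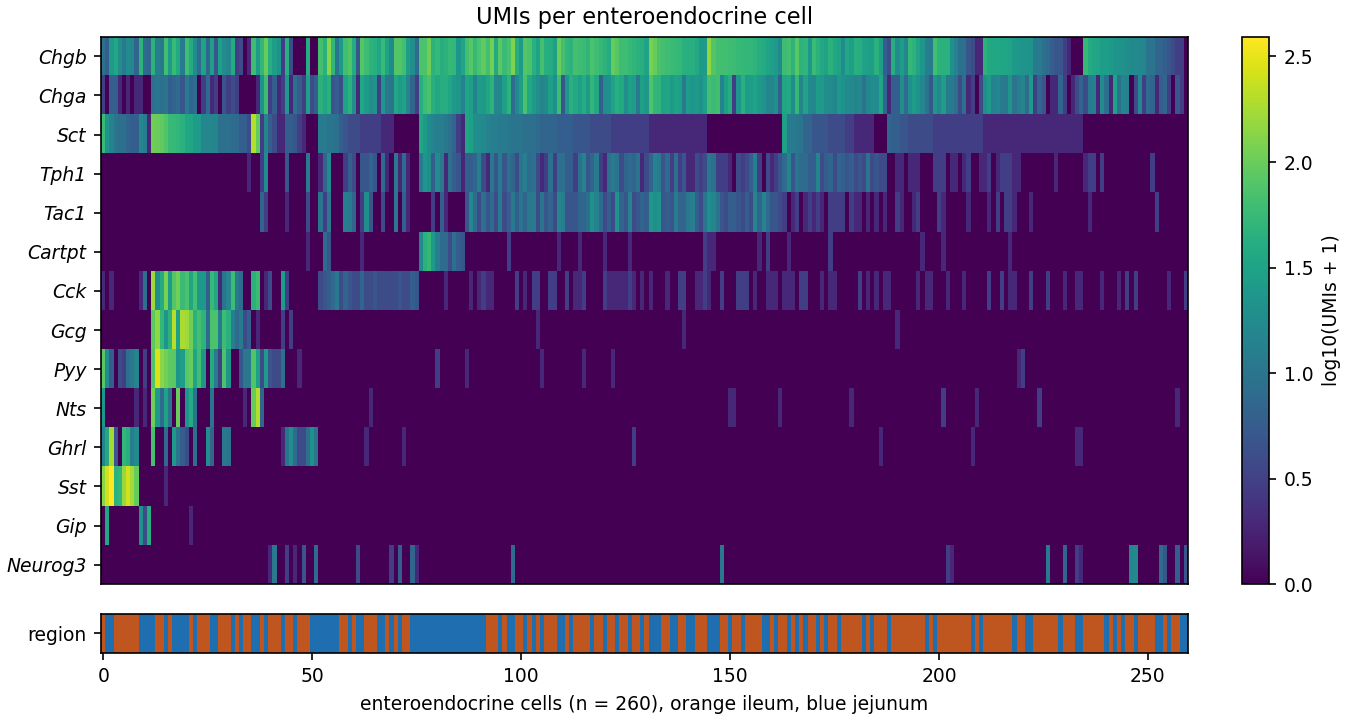
UMIs of granin, hormone, serotonin synthesis and Neurog3 transcripts (rows) in each of the 260 EECs (columns), coloured by log10(UMIs + 1), with the region of each cell below (orange ileum, blue jejunum). Cells are ordered by the first hormone they passed for with 3 UMIs, and the blocks of Gcg, Cck, Pyy, Nts and Ghrl share few columns with those of Tph1 and Tac1.

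A few cells supplied much of some hormones. The top Gcg cell held 26.0%, 80.0%, 24.5% and 60.0% of the Gcg UMIs in ileum 1, ileum 2, jejunum 1 and jejunum 2, and the top Pyy cell 35.7%, 53.5%, 19.5% and 49.3% of the Pyy UMIs. For Sst the top cell held 75.2%, 36.6% and 59.5% of UMIs in the 3 libraries with an Sst cell. The top Tph1 cell held 6.13% to 8.80% in the 4 libraries and the top Tac1 cell 8.82% to 12.8%. Summed levels of Gcg, Pyy and Sst thus rested on fewer cells than those of Tph1 and Tac1.

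Regulators divided along the same line. Groups here are all EECs with 3 or more UMIs of a transcript, pooled over libraries, and a regulator counts as detected with 1 UMI. Etv1, an ETS factor, was detected in 22 of 24 Gcg cells and 12 of 14 Nts cells, and in 5 of 101 Tph1 cells. Isl1, a LIM homeodomain factor that the rule also used, was in 19 of 24 Gcg cells and 2 of 101 Tph1 cells. Pax6 followed with 20 of 24 and 14 of 101.

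The enterochromaffin side had its own set. Lmx1a, a LIM homeodomain factor required for serotonin synthesis genes, was detected in 90 of 101 Tph1 cells and 81 of 89 Tac1 cells, and in 1 of 24 Gcg cells. Glis3, a zinc finger factor, was in 93 of 101 Tph1 cells and 2 of 24 Gcg cells. Fev, an ETS factor of serotonin neurons, was less selective, with 45 of 101 Tph1 cells and 4 of 24 Gcg cells. Factors common to EECs did not divide the groups in this way. Neurod1, which the rule also used, was in 23 of 24 Gcg cells and 92 of 101 Tph1 cells. Runx1t1, which it did not use, was in 16 of 24 and 59 of 101.

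Within libraries, and so at matched preparation, the same contrasts were seen as ratios on log2 of CPM + 5, averaged over the 4 libraries. Tph1 cells against the remaining EECs gave -4.56 for Isl1, -3.30 for Etv1, -2.19 for Pax6, 1.82 for Lmx1a and 2.29 for Glis3. Cck cells gave the opposite signs for Etv1 (3.73) and Isl1 (1.92). Pyy cells, with enough cells in 3 libraries, gave 4.06 for Etv1 and -4.33 for Lmx1a.

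**Figure D3:**
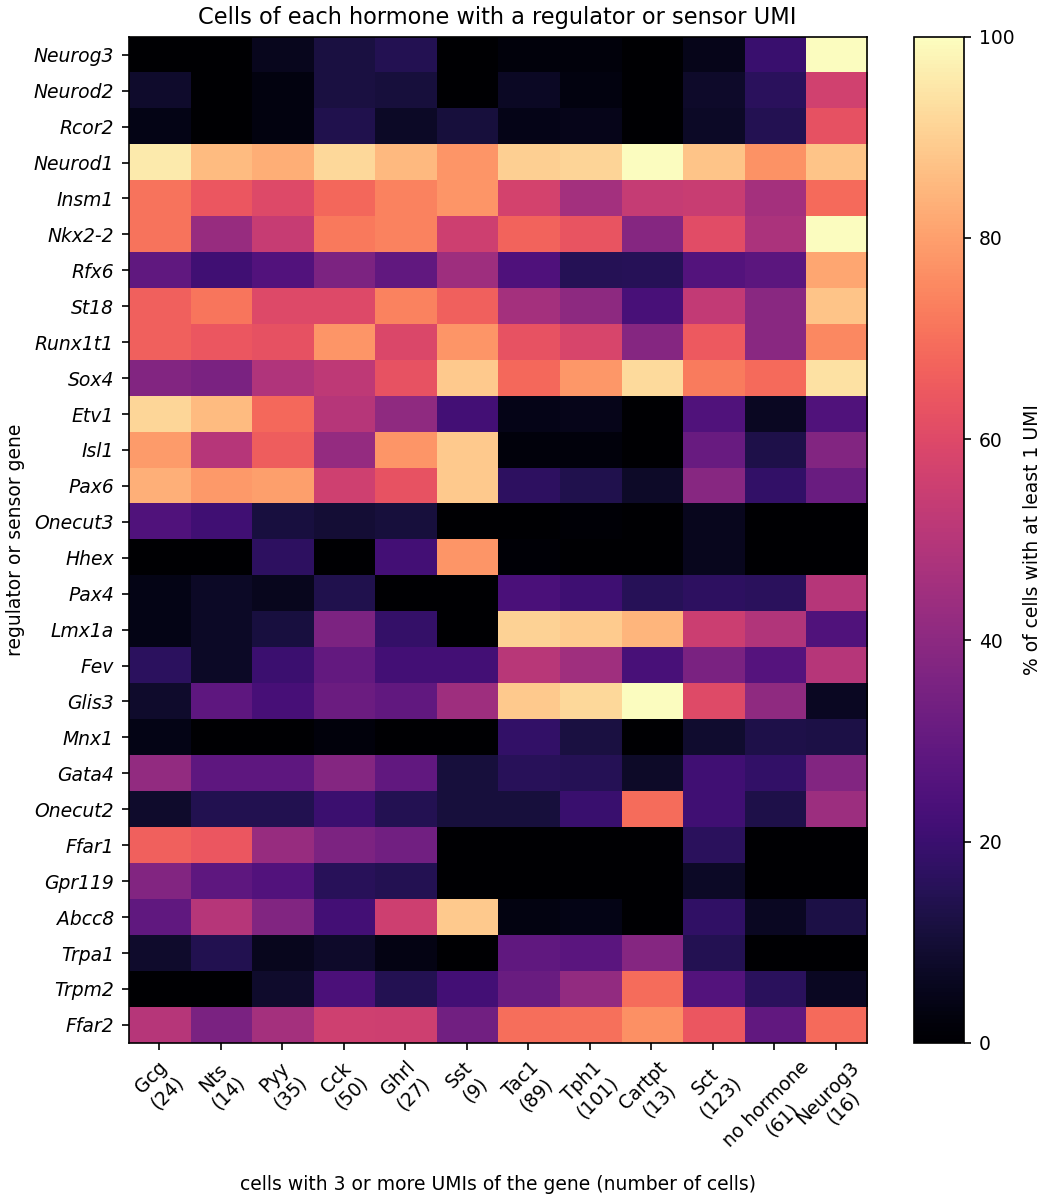
Percent of cells with at least 1 UMI (colour) of each regulator or sensor gene (rows) among EECs with 3 or more UMIs of each hormone, of Neurog3, or of no hormone (columns, with the number of cells). Etv1, Isl1, Pax6 and Ffar1 are high in Gcg and Nts cells and low in Tac1 and Tph1 cells, and Lmx1a and Glis3 the reverse.

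Nutrient sensors also differed between the sets. Ffar1, a receptor for long-chain fatty acids, was detected in 20 EECs, of which 16 were among the 24 Gcg cells and 0 among the 101 Tph1 cells. Gpr119, a receptor for lipid amides, was detected in 10 EECs, 9 of them Gcg cells. Ffar2, a receptor for short-chain fatty acids, was detected in 12 of 24 Gcg cells and 71 of 101 Tph1 cells. Trpa1, an irritant-gated channel of enterochromaffin cells, was in 28 of 101 Tph1 cells and 2 of 24 Gcg cells. Trpm2 was in 42 of 101 Tph1 cells and in 0 of 24 Gcg cells, which allows up to 12.5% with a UMI. Gpbar1, the membrane bile acid receptor, had no UMI in any EEC.

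Genes that ranked highest by hormone were named by a ratio rule (the 5 highest ratios, at least 50 CPM in positive cells of each library used). For Tph1 they were S100a6, Nr4a1, Tpbg, Cwh43 and Trpa1. S100a6 averaged 998 CPM in Tph1 cells and 146 in the remaining EECs, and Tpbg, a cell surface glycoprotein, 637 and 119. For Tac1 they were Afp, C2cd4b, Reg4, Gstt1 and Krt87. Afp (alpha-fetoprotein) averaged 1517 CPM in Tac1 cells and 168 in the remaining EECs, and Reg4 13185 and 1342. For Cck they were Gcg, Ffar1, Pyy, Etv1 and Sphkap, for Pyy Gcg, Nts, Sst, Iapp and Scg2, and for Sct Gcg, Pyy, Nts, Scg2 and Ghrl.

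Sst cells held transcripts of part of the peptide set. All 9 held a UMI of Sct, which the rule used, 8 held Pyy, 8 held Ghrl and 8 held Iapp, the precursor of amylin. None held a Gcg UMI, and most held no Cck or Nts UMI. Hhex, a homeodomain factor of pancreatic and gastric D cells, was detected in 8 EECs, and 7 of these were among the 9 Sst cells. Asic5, an ion channel gene of the acid-sensing family, was detected in 4 EECs, all of them Sst cells. Isl1 was in 8 of the 9, Pax6 in 8, Etv1 in 2 and Lmx1a in 0. Sst cells numbered 2 and 5 in the ileum against 2 and 0 in the jejunum, too few to place by region.

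The 13 Cartpt cells with 3 or more UMIs were all jejunal, 3 in jejunum 1 and 10 in jejunum 2. At 1 UMI or more, Cartpt was in 5 EECs of ileum 1, 3 of ileum 2, 7 of jejunum 1 and 15 of jejunum 2. All 13 Cartpt cells held Tph1 and Glis3 UMIs, 11 held Lmx1a, and 0 held Isl1 or Etv1, which allows up to 23.1% with a UMI. Onecut2, a cut-domain homeodomain factor, was detected in 9 of the 13, and Glp1r, the receptor for glucagon-like peptide 1, in 7 of the 13 against 22 of all 260 EECs. Npy1r was in 5 of the 13 and 16 of 260, and Galr1, a galanin receptor, in 8 of the 13 and 44 of 260. These receptors were not compared with other jejunal Tph1 cells or at equal depth. Jejunum 2 EECs were the deepest, with a median of 5478 UMIs, and the median Cartpt cell held 5760.

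Neurog3 marked a further group. It had 3 or more UMIs in 16 EECs, 3 and 5 in the ileum against 3 and 5 in the jejunum. Nkx2-2 was in all 16, Sox4 in 15, Rfx6 in 13, Rcor2 in 10, Neurod2 in 9 and Mfng in 8, while among all 260 EECs Rcor2 was in 23, Neurod2 in 26 and Mfng in 15. Some products of mature cells were few: Reg4 and Afp were in 0 of the 16 (which allows up to 18.8% with a UMI), Glis3 in 1 and Tph1 in 3. Among all 260 EECs, Reg4 was in 129, Afp in 115 and Tph1 in 158. A Cck UMI was in 8 of the 16 and in 130 of all 260, so Cck was not scarcer there. An Sct UMI was in 6 of the 16. Of the 25 EECs with any Neurog3 UMI, 12 were among the 61 without a hormone. Atoh1, the factor that opens the secretory lineage, had a UMI in 1 EEC, at 1.01 CPM against 0.329 in other kept cells. Dll4, a Notch ligand, averaged 57.0 ± 31.5 CPM in EECs and 0.722 elsewhere, and Dll1 10.9 and 41.5.

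The 61 cells without a hormone had a median of 24 UMIs of the rule's markers, and the medians of cells led by a hormone ran from 16 (8 cells led by Ghrl) and 33 (Sst) to 94 (Tac1) and 111 (2 cells led by Nts). Of the 61, 57 held a Chgb UMI, 55 a Chga UMI, 30 an Lmx1a UMI, 4 an Etv1 UMI and 8 an Isl1 UMI. Their median depth was 3262 UMIs, against 3480 over all EECs. Of the 61, 36 held an Sct UMI, which the rule used, and 22 a Tph1 UMI. Of other kept cells thinned to 2000 UMIs, 5.12% to 6.01% held an Sct UMI and 0.037% to 0.167% a Tph1 UMI. The 61 cells were counted without thinning, so these shares are not at equal depth with theirs.

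Summed EEC counts were then compared between regions, 2 ileal against 2 jejunal libraries (edgeR quasi-likelihood test, Benjamini-Hochberg adjustment over 6075 genes). Of these, 7 passed an adjusted p of 0.05, 0.115% of those tested, 2 (0.0329%) toward the ileum and 5 (0.0823%) toward the jejunum, and 796 had an unadjusted p below 0.05. Both segments came from the same 2 mice, and with the mouse as a replicate block 187 genes passed (3.08%), the 7 included, with 121 (1.99%) toward the ileum and 66 (1.09%) toward the jejunum. DESeq2 called 39 (0.642%), which also held the 7. Leaving out any 1 library raised the count, to between 107 and 559, again with the 7. When the profile of other cells was subtracted from the EEC sums, 0 passed in edgeR, with 533 at an unadjusted p below 0.05. The sums alone do not tell fewer cells of a class from less RNA of a gene per cell, but counts by cell describe both. Cck, for example, passed with 3 UMIs in 21 of 150 ileal and 29 of 110 jejunal EECs. Within those cells, pooled over the libraries of a region, it stood at 2488 and 7464 CPM. This split was not tested.

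Gata4, Onecut2 and Prdm16, which encode transcriptional regulators, were among the 5 genes called toward the jejunum. Gata4, a zinc finger factor of the proximal intestine, stood at 18.9 and 17.5 CPM in ileal EECs and 129 and 137 CPM in jejunal EECs (log2 ileum minus jejunum -2.85 ± 0.37 SE, adjusted p = 0.0223). The regions did not overlap, as they did not for 44% of all genes tested. In other kept cells Gata4 was at 32.8 and 51.4 CPM in the ileum against 116 and 113 in the jejunum, so the direction was shared, and the difference between the 2 contrasts was not significant (interaction adjusted p = 0.283). Onecut2 gave 1 UMI in all ileal EECs and 70 in the jejunum, where it stood at 98.0 and 193 CPM (adjusted p = 0.0155). As a ratio of pooled shares this is 105-fold with a 95% counting interval of 18.2 to 4207. Prdm16, a zinc finger chromatin factor, was at 35.4 and 52.5 CPM in the ileum against 276 and 253 in the jejunum (-2.63 ± 0.31, adjusted p = 0.0155). In other cells Prdm16 was lower, at 95.4 and 102 CPM in the jejunum.

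Onecut2 and Gata4 were also counted cell by cell within hormone classes. Onecut2 was detected in 20 of 46 jejunal and 0 of 55 ileal Tph1 cells. Among cells with Gcg, Pyy, Cck, Nts or Ghrl and no Tph1 it was in 11 of 29 jejunal and 0 of 31 ileal cells. Among cells without a hormone it was in 7 of 18 and 1 of 43. Gata4 was in 12 of 46 jejunal and 3 of 55 ileal Tph1 cells, in 14 of 29 and 4 of 31 peptide cells, and in 8 of 18 and 3 of 43 cells without a hormone. No test was run within classes.

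Adgrg4 and Apoc2 were also higher in jejunal EECs. Adgrg4, an adhesion G protein-coupled receptor, was at 30.6 and 42.0 CPM in the ileum against 267 and 286 in the jejunum (-2.96 ± 0.31, adjusted p = 0.0155), and at 1.65 to 2.99 CPM in the other cells of the 4 libraries, so this contrast was larger in EECs than elsewhere (interaction -2.20 ± 0.52, adjusted p = 0.00315, but 0.876 against other cells of equal number and depth). Apoc2, an apolipoprotein of enterocytes, was at 262 and 221 CPM in the ileum against 1092 and 1637 in the jejunum (-2.51 ± 0.30, adjusted p = 0.0155). Its EEC level was 38.5%, 27.3%, 24.0% and 28.7% of that in other cells, close to the summed ratios of the enterocyte markers given above, and their part in the result was not tested.

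Guca2a and Edn1 were higher in ileal EECs. Guca2a encodes guanylin, an epithelial peptide that stimulates fluid secretion, and stood at 1230 and 522 CPM in the ileum against 35.6 and 8.05 in the jejunum (5.33 ± 0.62, adjusted p = 0.0155). Other cells had 2181 and 1890 CPM in the ileum against 238 and 54.4 in the jejunum, and the EEC level was 56.4%, 27.6%, 15.0% and 14.8% of theirs. It was detected in 32 of 55 ileal and 2 of 46 jejunal Tph1 cells. Edn1, endothelin 1, was at 285 and 336 CPM in the ileum against 71.3 and 52.3 in the jejunum (2.31 ± 0.30, adjusted p = 0.0223). In other cells Edn1 stood at 235 and 293 CPM in the ileum against 136 and 193 in the jejunum, a smaller contrast than in EECs (interaction 1.84 ± 0.39, adjusted p = 0.000531, 0.10 against other cells of equal number and depth). Fabp6, the ileal bile acid binding protein, had 98 UMIs in ileal EECs and 0 in jejunal ones, at least 21.8-fold higher (floor of 3 UMIs over the group), with adjusted p = 0.0591, and 4.83e-05 with the mouse block. Its EEC level in the ileum, 82.5 and 221 CPM, was 40.2% and 61.4% of that in other cells.

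**Figure D4:**
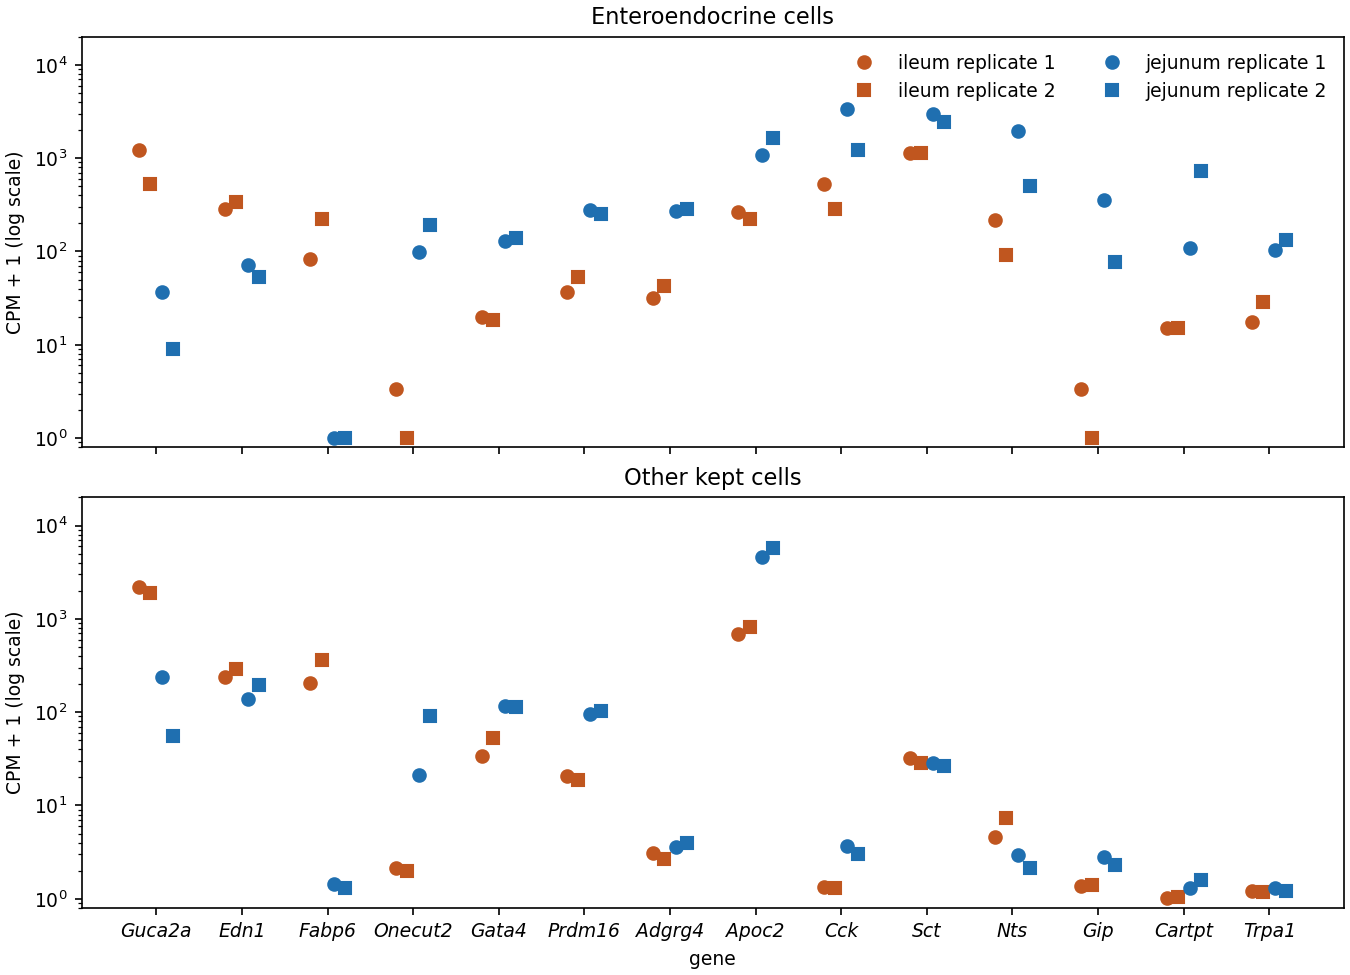
Summed level of regional genes and hormones in EECs (top) and in other kept cells (bottom), as CPM + 1 on a log scale, with 1 point for each library (orange ileum, blue jejunum, circles replicate 1, squares replicate 2). Gata4, Onecut2 and Prdm16 are separated by region in both panels. Sct, which the rule used, is separated by region in EECs and not in other cells.

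No hormone passed in the main edgeR fit, which has no block. Of 11 hormone and peptide genes tested other than Sct, 10 had a lower fitted level in the ileum, with a median log2 difference of -1.34, while over all 6075 genes 3079 were lower and the median was -0.01. This lean depended on the setting. Without jejunum replicate 1, 6 of 12 were lower and the median was -0.03. Leaving out any other library gave medians of -1.67 to -2.22. With the block 9 of 11 were lower (median -0.69), and with no low-count filter 12 of 22 (-0.27). The number of these genes called also depended on the setting. Without the block it was 2 with DESeq2 and 2 with at least 4 markers and 10 UMIs. It was 4 with sums thinned to the smallest and 8 with no low-count filter. Cck was at 528 and 287 CPM in the ileum against 3369 and 1211 in the jejunum (-2.49 ± 0.49, adjusted p = 0.0784, and 0.000319 with the block). Its 2 jejunal libraries stood above the 2 ileal ones, as they did for 20.6% of all genes tested. Sct, which the rule used and which is given as a description only, was at 1148 and 1121 CPM in the ileum against 2959 and 2414 in the jejunum (-1.26 ± 0.25).

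Besides Cck, the hormones called with the block were Nts, Gip and Cartpt, and some of their levels rested on few cells. Nts stood at 217 and 91.1 CPM in the ileum against 1952 and 507 in the jejunum (-2.97 ± 0.61, adjusted p = 0.0891, and 4.83e-05 with the block). Its top cell held 41.3%, 84.6%, 44.3% and 75.4% of the Nts UMIs in ileum 1, ileum 2, jejunum 1 and jejunum 2. Gip had 1 UMI in the ileum against 98 in the jejunum, where it was at 352 and 76.4 CPM (adjusted p = 0.0591, and 4.86e-06 with the block), and its cells with 3 or more UMIs were 3 in jejunum 1 and 1 in jejunum 2. Cartpt was at 14.1 and 14.0 CPM in the ileum against 107 and 728 in the jejunum (-4.88 ± 0.88, adjusted p = 0.0687, and 4.83e-05 with the block). Trpa1, among the sensors, was at 16.5 and 28.0 against 102 and 133 CPM (adjusted p = 0.0596, and 0.00231 with the block).

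The remaining hormones were not called in the main fit or with the block. Gcg ran from 141 to 3863 CPM over the jejunal libraries and from 210 to 1270 over the ileal ones (-1.42 ± 1.13, adjusted p = 0.661). Its value turned on single libraries: it was 2.40 (adjusted p = 0.000335) without jejunum replicate 1, -2.36 (3.66e-06) without jejunum replicate 2 and -3.28 (0.00822) without ileum replicate 1. Pyy was at 1859 and 543 CPM in the ileum against 1921 and 897 in the jejunum (-0.23 ± 0.53), and it was called without ileum replicate 1 (-1.41, adjusted p = 0.00822) but turned to 0.43 without ileum replicate 2 and without jejunum replicate 1. Ghrl (-1.34 ± 0.94) was called in opposite directions without jejunum replicate 1 (2.19, adjusted p = 0.00258) and without jejunum replicate 2 (-2.24, 3.81e-05). Sst (-0.03 ± 1.36) turned to 8.37 (adjusted p = 5.56e-21) without jejunum replicate 1, which left the jejunum with 1 Sst UMI. Tph1, at 382 and 743 against 744 and 1006 CPM, gave -0.67 ± 0.33 (adjusted p = 0.447), and Tac1 -0.85 ± 0.37 (adjusted p = 0.366).

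Regulators and granule genes were also counted without those the rule used. Fitted levels were lower in the ileum for 25 of 29 regulators (median -0.55) and 20 of 23 granule genes (-0.58), against a median of -0.01 over all genes. Of these, only Gata4 and Onecut2 passed. Enterocyte markers had a median of 0.21, and their level relative to other cells was highest in ileum replicate 1 (54.1%). Without that library the medians for regulators and granule genes became -0.36 and -0.26, and after subtraction of the other-cell profile they were -0.62 and -0.56. The markers of the rule itself are given as a description only. All 7 were lower in the ileum (median -0.60), among them Insm1 at 123 and 186 CPM in the ileum against 352 and 298 in the jejunum (-1.11 ± 0.28) and Chga (-0.72 ± 0.26).

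The same contrast was asked of EECs and of other kept cells together, with the library as a block. The regional difference differed between them for 337 of 17843 genes (1.89%), 213 (1.19%) with a more positive value in EECs and 124 (0.695%) with a more negative one, around a median of 0.13. Of 541 genes called between regions in other cells and also tested in EECs, 381 had the same sign in EECs. Of all genes, 7.51% were called between regions in other cells, whose sums are far deeper. When other cells were cut to the number and UMIs of the EECs, 120 genes passed, 104 of them among the 337.

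Several genes called between regions in other cells had a smaller or opposite difference in EECs. Afp stood at 346, 638, 593 and 825 CPM in the EECs of ileum 1, ileum 2, jejunum 1 and jejunum 2. In other cells it was at 177, 156, 4.39 and 1.95 CPM. The regional log2 difference was -0.56 ± 0.32 in EECs and 5.65 ± 0.40 in other cells (interaction -6.17 ± 0.35, adjusted p = 4.65e-67, and 2.66e-13 at equal number and depth). Afp was detected in 24 of 39 jejunal and 39 of 50 ileal Tac1 cells, and in 0 of 29 jejunal and 4 of 31 ileal peptide cells without Tph1.

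Serpina1a, a serine protease inhibitor, was the mirror image. EECs had 200, 406, 392 and 374 CPM, and other cells 2.22, 2.70, 215 and 275 CPM (interaction 6.41 ± 0.34, adjusted p = 2.10e-72, and 2.79e-15 at equal number and depth). It was detected in 37 of 64 ileal and 35 of 59 jejunal Sct cells. The Serpina1 genes are near-identical copies, so how reads were split among them is uncertain; Serpina1b gave 4.26 ± 0.42.

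Il18r1, a subunit of the interleukin 18 receptor, was at 28.3, 59.6, 75.8 and 109 CPM in EECs and 38.7, 14.8, 0.307 and 0.239 CPM in other cells (interaction -7.43 ± 0.57, adjusted p = 2.40e-35, and 0.0370 at equal number and depth). It was detected in 27 of 89 Tac1 cells and 0 of 24 Gcg cells. Bex2, on the granule list, was at 205, 350, 446 and 483 CPM in EECs and 6.59, 3.42, 0.461 and 0.304 in other cells (-4.22 ± 0.37, adjusted p = 2.08e-26), though not at equal number and depth (0.116). Krt7, a keratin, and B4galt1, a galactosyltransferase, both chosen after their values were seen, kept their calls at equal number and depth (adjusted p = 9.07e-05 and 3.19e-05). Krt7 was at 346, 676, 553 and 664 CPM in EECs and 136, 90.9, 21.2 and 10.3 in other cells.

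Other genes kept part of the pattern of other cells. Fam13a was at 16.5 and 31.5 CPM in ileal and 116 and 88.5 CPM in jejunal EECs, a log2 difference of -2.15 ± 0.42 against -5.87 ± 0.56 in other cells (interaction 3.98 ± 0.57, adjusted p = 3.11e-09). Meg3, an imprinted long noncoding RNA, was at 372, 855, 316 and 40.2 CPM in EECs and 190, 47.3, 1.35 and 1.24 in other cells (interaction -4.10 ± 0.39, adjusted p = 7.46e-23, 0.450 by DESeq2, and 0.181 in edgeR at the least favourable library left out). Of the 18 listed regional enterocyte genes, 9 differed, 4 upward and 5 downward.

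**Figure D5:**
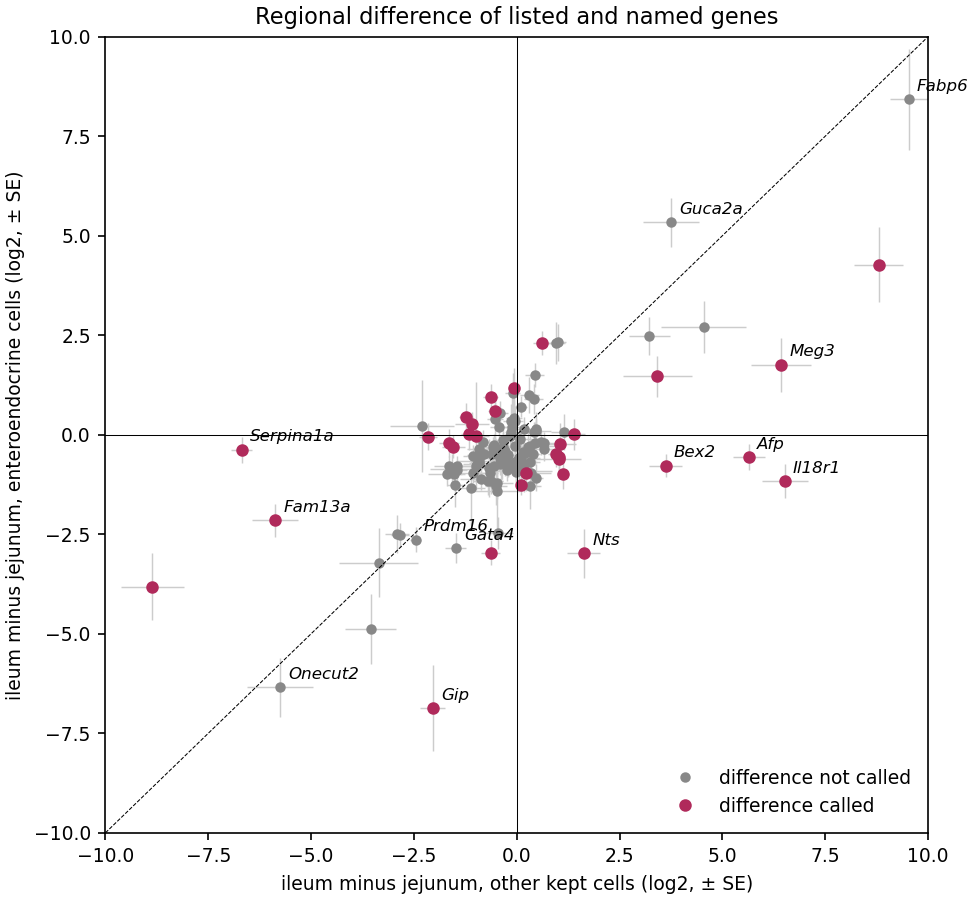
Log2 difference ileum minus jejunum in EECs (vertical axis, ± SE) against that in other kept cells (horizontal axis, ± SE) for 136 listed and named genes tested in both, with the 31 genes whose difference between the 2 was called in red. Afp (-0.56 in EECs, 5.65 in other cells), Il18r1 (-1.16, 6.52) and Serpina1a (-0.38, -6.69) lie far from the dashed line of equal differences, and Prdm16 (-2.63, -2.46) and Apoc2 (-2.51, -2.84) near it.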

How the data were processed

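The authors dissociated epithelium with EDTA and dispase, made PIPseq V T20 libraries and processed reads with PIPseeker (GRCm39 per the labels; the annotation is not given in the sources used here). The deposited matrices hold raw counts (UMIs) per gene and cell barcode. The 4 libraries held 131400239, 125067265, 64391480 and 57951874 UMIs (ileum 1 and 2, jejunum 1 and 2).

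EECs were chosen by the stated rule, and members, gene lists, hormone groups and promoters were chosen with earlier results of these data known. Counts were summed per library over EECs and over other kept cells. Regions were compared with edgeR 4.0.16 (quasi-likelihood, TMM, R 4.3.3) over genes passing its count filter, and the difference between the 2 cell sets with an interaction term and the library as a block. DESeq2 1.42.0 was an alternative, beside other filters, the replicate block, thinning, subtraction and libraries left out. Both regions of a replicate came from the same mouse, so replicate numbers pair libraries; the difference between replicates 1 and 2 in the ileum correlated with that in the jejunum at 0.0795 over 6236 genes. Named genes were those of the lists, called regional genes with at least 20 CPM in the higher region (up to 12 each way), the 20 genes outside the rule highest against other cells (at least 100 CPM in EECs of every library), the 5 most positive and 5 most negative called interactions (at least 20 CPM), the 5 highest genes per hormone with at least 8 cells on both sides (at least 50 CPM), and a few said to be chosen after their values were seen. On simulated counts with true log2 differences of 1, 2 and 3, the regional test recovered 0%, 53.5% and 99.5%. The simulated spread was set larger than the fitted one (common biological coefficient of variation 0.215). Only genes above a count limit were changed, so recovery in these data can differ. A few listed genes are not reported here. Scripts used Python 3.11.15, scanpy 1.11.5 and scipy 1.17.1.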

Additional observations from a re-analysis of the deposited data

Results flagged for a closer look

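The regional difference (log2 ileum minus jejunum) was tested for a difference between EECs and other kept cells, and listed or named genes past an adjusted p of 0.05 (edgeR) follow as EEC value minus other-cell value. The extremes upward were Insl5 (14.76), Gm15997 (14.23), Ube2c (13.59), Dnase1l1 (11.79) and Serpina1a (6.41). Insl5 had 36 of its 37 EEC UMIs in 1 cell and Gm15997 all 70 in 1 cell, and Ube2c and Dnase1l1 had no UMI in jejunal EECs, so their fitted values are no measure of size. The extremes downward were Rbp4 (-7.70), Il18r1 (-7.43), Afp (-6.17), Muc3a (-5.26) and A26c2 (-5.14, with 48 of 51 UMIs in 1 cell).

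Among hormones the differences were -1.21 for Sct, -1.36 for Pyy, -4.81 for Gip, 1.99 for Sst and -4.24 for Nts. Regulators and granule genes gave -1.49 for Foxa1, -1.25 for Cpe, -1.28 for Syt7 and -4.22 for Bex2. Sct and Cpe were used by the rule, so their values are descriptions. Sensors and transporters gave 12.97 for Adra2a, which had no UMI in jejunal EECs, 1.74 for Slc5a1 and 1.37 for Slc15a1. Cell cycle and progenitor genes gave 2.60 for Mki67, 2.97 for Top2a, 4.17 for Cenpf, -1.13 for Cdkn1a, 1.47 for Btg2, 2.24 for Olfm4 and 1.80 for Slc12a2.

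Enterocyte genes gave 1.38 for Alpi, 1.44 for Mttp and 1.66 for Anpep. Regional enterocyte genes gave -4.49 for Scd2, -4.10 for Meg3, 4.99 for Mfsd2a, 3.61 for Cd36, 3.98 for Fam13a and -2.40 for Bex4. Summed enterocyte markers in EECs were 54.1% of the other-cell level in ileum replicate 1 and 24.2% to 30.4% in the other libraries, and their part in these differences was not tested. With 2 libraries a region, no library could be examined as an outlier within its group.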

How the results depend on the processing

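The regional count of 7 became 39 with DESeq2, 374 with no low-count filter, 187 with the replicate block (mouse), 4 with no upper limit on genes, 102 with at least 4 markers and 10 UMIs, 58 with sums thinned to the smallest, 0 after subtraction of the other-cell profile (533 at an unadjusted p below 0.05), and 107 to 559 with 1 library left out. The 7 genes remained called in all of these except 3 without the upper limit and 7 after subtraction. The interaction count of 337 became 100 with DESeq2, 120 at equal number and depth, 572 with at least 4 markers and 10 UMIs, and 53 to 724 with 1 library left out. The difference in EEC share, 0.209 points, became -0.206 with mitochondrial share under 10% and ran from 0.0603 to 0.357 with 1 library left out. Pyy turned to 0.0899 with at least 4 markers and 10 UMIs, and Sst to 0.0642 with no low-count filter, 1.33 with the replicate block and 0.114 after subtraction. With 1 library left out Gcg ran from -3.28 to 2.40, Pyy from -1.41 to 0.43, Sst from -1.57 to 8.37, Ghrl from -2.24 to 2.19 and the regional difference of Serpina1a from -0.908 to 0.0521. The cause was not tested. Arms left with 1 library are assumed to vary like the other. EEC sums of 224419 to 424311 UMIs limit what can be called. On simulated counts, whose spread was set larger than the fitted one, a true log2 difference of 1 was not recovered.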
